A study of Homo sapiens with 8 samples.

Results

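The genes described here sense double-stranded or otherwise foreign RNA in human cells and pass the signal on. They are the cytosolic RNA helicases DDX58 (RIG-I, now named RIGI), IFIH1 (MDA5) and DHX58 (LGP2), the endosomal receptor TLR3, the RNA-dependent kinase EIF2AK2 (PKR), the mitochondrial adaptor MAVS, the kinase TBK1, and the transcription factors IRF1, IRF3 and IRF7. The members were chosen by their symbol in the gene name column of the arrays, with every non-control probe kept. This gave 10 genes with 16 probes, out of 43317 gene names and 58201 probes on the array.

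RIG-I and MDA5 are helicases that bind viral RNA in the cytosol and then engage MAVS, which recruits TBK1. TBK1 phosphorylates IRF3 and IRF7, and these factors switch on type I interferon genes. Interferon in turn induces many antiviral genes, among them those of the RNA sensors, so several members are both sensors and interferon-stimulated genes. Short synthetic RNAs delivered with lipid can be seen by TLR3, PKR and the helicases, which is why the genes are of interest in cells transfected with miRNAs or siRNAs.

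Gene expression was measured on 8 two-colour Agilent Human GE 60K arrays in 5 established human cancer cell lines. In each case RNA of mock cells with no transfection carried Cy3, and RNA of cells that had received a small RNA with the lipid reagent Lipofectamine RNAiMAX carried Cy5. PC3 prostate cancer cells received si-PIR-2 or si-PIR-3, which are siRNAs against PIR, on 1 array each. SK-MES-1 lung squamous cell carcinoma cells received miR-144-5p or miR-144-3p, PANC1 pancreatic cancer cells received miR-130-5p or miR-130-3p, and miR-204-5p was given both to SW1990, a pancreatic cancer line, and to MDA-MB-231, a breast cancer line. No array held cells given a control small RNA, and the dyes were never swapped, so the small RNA, the reagent and the dye cannot be told apart. The mock RNA of a line counts as 1 control sample, its own spread is left out of every test, and nothing in the labels says that arrays came from separate cultures.

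Between 41.4% and 46.4% of probes were well above background in Cy3, and between 49.8% and 54.6% in Cy5. PIR, the gene targeted by the siRNAs, had log2 ratios of -5.46 and -4.27 on the si-PIR-2 and si-PIR-3 arrays. The immune cell markers PTPRC and CD14 were well above background in the mock cells of all 5 lines. Relative to the 75th percentile of the array on the log2 scale, CD14 ran from -1.82 in PC3 to 1.28 in MDA-MB-231. PTPRC was dim, from -2.84 in MDA-MB-231 to -1.95 in PC3. The squamous markers KRT5 and KRT6A were not well above background in SK-MES-1 mock cells, where TP63 was detected, while both keratins were detected in SW1990. CD3E in PC3 mock cells, and CDH1 and ESR1 in those of MDA-MB-231, were dim but well above background, although they had been listed as absent there. The other markers reported were present or absent as listed for the lines. The part of these markers in the results was not tested.

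The mature sequences of 3 of the transfected miRNAs are shown because they are small RNAs given to these cells. Whether any sensor bound them was not measured. They were taken from RefSeq (GRCh38.p14), and capitals mark the seed, bases 2 to 8.
hsa-miR-144-5p: gGAUAUCAucauauacuguaag
hsa-miR-144-3p: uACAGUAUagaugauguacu
hsa-miR-204-5p: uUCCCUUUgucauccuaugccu
The miR-144 strands come from chromosome 17 and miR-204-5p from chromosome 9, all from the minus strand, and no seed is shared. The labels name miR-130 without the letter that tells its family members apart, so its sequence is not shown.

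A shared feature of several members lies in their promoters. Interferon-regulatory factors bind repeats of GAAA spaced by a pair of bases, and GAAANNGAAA was searched on both strands in windows of 250 bases before to 50 after the start site. RefSeq (GRCh38.p14) gave a window for 7 members: DDX58, IFIH1, TLR3, EIF2AK2, MAVS, TBK1 and IRF1. The motif was found for 3 of the 7, IFIH1, TLR3 and EIF2AK2, against 3.57% of 35116 promoters of the same length. The stretches around it are given with the motif in capitals, on the strand of the gene, and overlapping matches run together.
IFIH1, chr2:162318813-162318858, minus strand: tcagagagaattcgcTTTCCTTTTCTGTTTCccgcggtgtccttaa
IFIH1, chr2:162318681-162318720, minus strand: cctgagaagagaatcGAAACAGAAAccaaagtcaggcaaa
TLR3, chr4:186069137-186069175, plus strand: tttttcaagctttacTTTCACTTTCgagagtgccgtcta
EIF2AK2, chr2:37156962-37157001, minus strand: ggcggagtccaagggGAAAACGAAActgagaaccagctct
In IFIH1 the matches began at -159, -153 and -21 from the start site, the first pair on the opposite strand. In TLR3 the match began at -4 on the opposite strand, and in EIF2AK2 at -6 on the strand of the gene. A match describes these letters and does not show a bound site.

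The level of the sensors in mock cells was read from the Cy3 channel as the log2 signal minus the 75th percentile of the array. It was compared between lines within 1 probe only, with no test, since each line has 1 mock RNA. In these bulk samples, fewer cells with a transcript and less of it per cell cannot be told apart. For PC3, SK-MES-1 and PANC1 the 2 arrays gave a pair of readings, and a pair of neighbouring lines was taken as apart only if they differed by more than the largest difference between such readings for that probe. The brightest probe of each gene is described unless another is named.

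The 3 helicases differed between lines by more than the readings of 1 line did. The level of DHX58, the helicase without a signalling domain, was 3.09 in SW1990, 2.54 in SK-MES-1, 1.75 in MDA-MB-231, 0.48 in PANC1 and -2.89 in PC3. All 5 lines were apart, readings of one line differing by at most 0.20, and SW1990 lay 5.98 above PC3. The PC3 signal was close to the floor of the array, with mean Cy3 intensities of 26.5 and 27.8 against 373.1 in SW1990, and with normexp background correction and quantile normalization the difference was 2.88. IFIH1, which senses long double-stranded RNA, was also highest in SW1990 at 3.85, followed by 2.19 in SK-MES-1, 1.21 in MDA-MB-231, 1.05 in PANC1 and 0.60 in PC3. This gave a 9.55-fold difference between SW1990 and PC3, and 2.47 on the log2 scale with normexp and quantile normalization. DDX58, the sensor of RNA with a triphosphate end, stood at 2.95 in SW1990 and 2.88 in MDA-MB-231, which were not apart. It was 1.46 in PANC1, 1.21 in SK-MES-1 and 0.64 in PC3. PC3 thus had the lowest mock level of all 3 helicases, and SW1990 the highest of DHX58 and IFIH1. The second DDX58 probe was highest in MDA-MB-231 at 1.95, against 1.38 in SW1990, and again lowest in PC3.

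TLR3, which binds double-stranded RNA in endosomes, was detected in mock cells of 3 lines only. Its level was 0.46 in SK-MES-1, -0.02 in MDA-MB-231 and -0.22 in SW1990, of which MDA-MB-231 and SW1990 were not apart. In PC3 and PANC1 none of the 4 arrays showed it well above background, with mean Cy3 intensities from 19.2 to 21.9. With the scanner's processed signals, and set against the lowest signals that were well above background, the TLR3 signal was at least 17.7-fold higher in SK-MES-1, 12.4-fold in MDA-MB-231 and 10.8-fold in SW1990 than in PC3. Against PANC1 these bounds were 12.7-fold, 8.88-fold and 7.75-fold. These bounds were set across arrays after quantile normalization of the mean of both channels, and hold for that processing only. With normexp (offset 50) and quantile normalization the highest line, SK-MES-1, lay 1.10 above the lowest, PANC1, on the log2 scale, or 2.14-fold.

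Next come the kinases, the adaptor and the transcription factors. EIF2AK2, which halts translation when it binds double-stranded RNA, was 5.08 in SW1990 and 4.24 in MDA-MB-231. It was 3.97 in SK-MES-1, 3.97 in PC3 and 3.95 in PANC1, lines that were not apart. TBK1 was 2.38 in PANC1 and 1.29 to 1.4 in the other lines, which were not apart from each other. MAVS was 4.42 in MDA-MB-231, 4.38 in SW1990 and 4.37 in PC3, with no neighbours apart, then 3.92 in PANC1 and 2.84 in SK-MES-1. IRF3, the factor present before infection, ran from 3.15 in SW1990 to 1.54 in PANC1. IRF7, the factor that amplifies the interferon response, ran from 5.12 in SW1990 and 4.51 in PC3 down to 3.45 in PANC1. IRF1 ran from 1.18 in MDA-MB-231 and 0.99 in SW1990, not apart, to -0.97 in PC3, with readings of one line differing by up to 0.62.

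**Figure D1:**
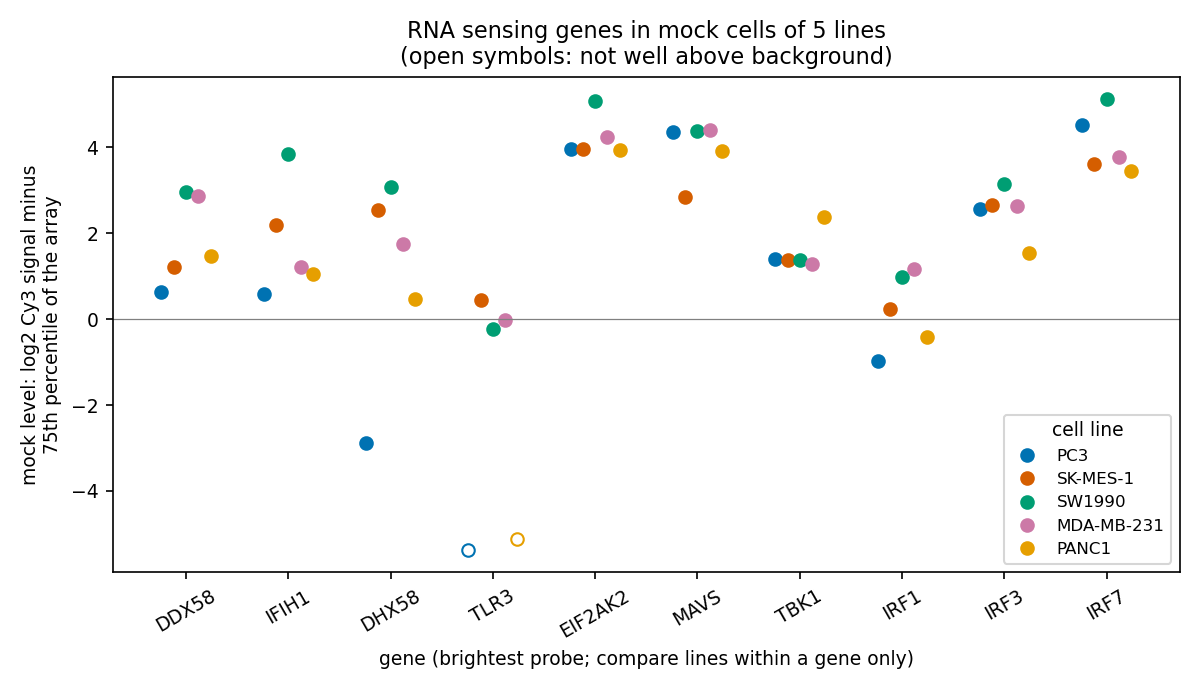
Mock level of the 10 genes in 5 cell lines. The vertical axis is the log2 Cy3 signal minus the 75th percentile of the array, points are cell lines (mean of the readings where a line has 2 arrays), and open points mark signals not well above background. DHX58 in PC3 lies at -2.89, far below the other lines, and TLR3 is open in PC3 and PANC1.

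The question put to the arrays was whether transfected small RNAs move the sensing genes. The ratio is the scanner's Cy5 over Cy3 on the log2 scale, so values above 0 are higher in transfected cells. Over the 5 cell lines, with arrays of a line averaged first, 9 members could be tested, since TLR3 was not above background in every line. limma called 0 of these 9 at an adjusted p under 0.05, and 0 also at an unadjusted p under 0.05. Of all 24111 probes tested, 0.178% were called, 18 higher and 25 lower, and 4823 had an unadjusted p under 0.05. None of the 13 alternatives called a member. In data simulated for this comparison over 24111 probes, 95% of genes changed by 1 on the log2 scale were called. The simulated noise was normal, with the variances that limma fitted, so the share may be lower for measured arrays.

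Of the 9 members, 2 had a mean above 0 and 7 below, with a median of -0.10 against 0.02 over all probes tested. DHX58 had the lowest mean, -0.37 (SE 0.178, n = 5, 95% interval -0.79 to 0.05), with an adjusted p of 0.292 by limma and 1 of 5 lines above 0. Its mean was -0.59 without SK-MES-1, and with normexp (offset 50) and loess it was -0.16, so that IRF7 (-0.23) and EIF2AK2 (-0.18) were then lower. IRF7 followed at -0.23 (SE 0.121, n = 5, interval -0.52 to 0.05, adjusted p 0.322 by limma), again with 1 of 5 lines above 0, and at -0.36 without SK-MES-1. TBK1 had the highest mean, 0.19 (SE 0.122, n = 5, interval -0.10 to 0.47, adjusted p 0.425 by limma), above 0 in 4 of 5 lines, and at 0.32 without PC3. EIF2AK2 was at -0.20, IRF3 at -0.12 and MAVS at -0.10. Leaving out 1 line moved EIF2AK2 to -0.088 (SW1990) or -0.30 (SK-MES-1) and MAVS to -0.044 (PANC1). DDX58 at 0.04, IFIH1 at -0.08 and IRF1 at -0.00 had no stable sign. DDX58 was at -0.10 without SK-MES-1 and at -0.01 without MDA-MB-231, IFIH1 at 0.02 without PC3, and IRF1 at 0.06 without SW1990. An exact two-sided permutation of the signs of the 5 lines gave p from 0.125 to 1.0, where 0.0625 is the smallest that 5 lines allow. The intervals of all 9 members lay within -0.79 and 0.47, so a shared shift of 1 on the log2 scale lay outside each of them.

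**Figure D2:**
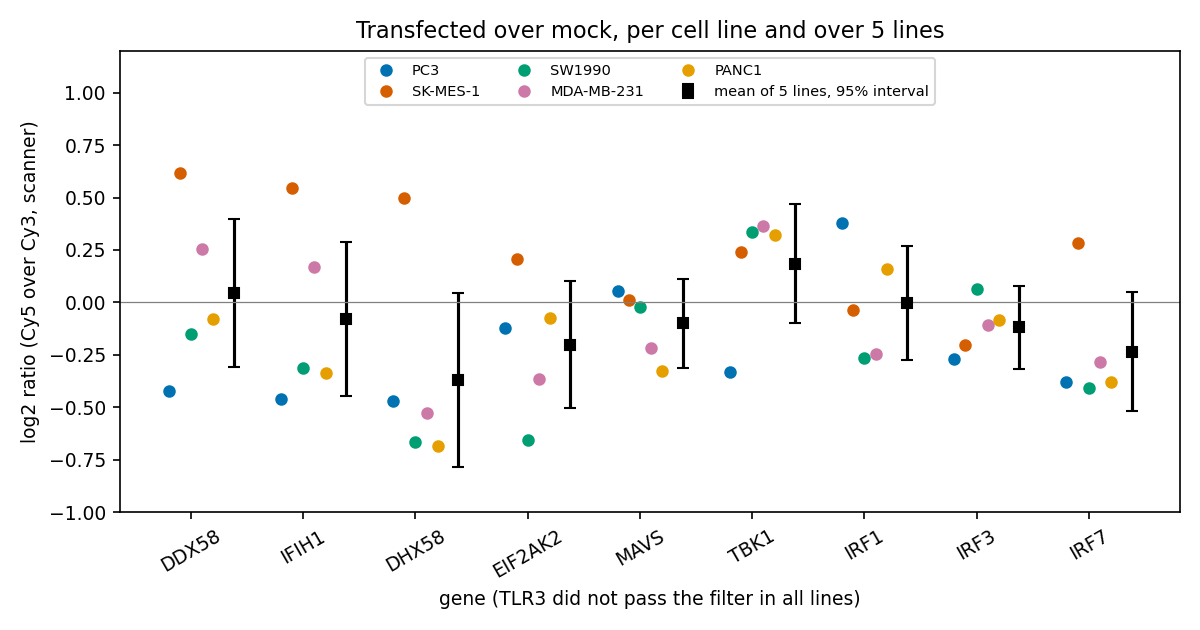
Log2 ratio of transfected over mock cells for 9 genes. Coloured points are cell lines (mean where a line has 2 arrays), black squares are the mean of 5 lines with the 95% interval of limma. Every interval spans 0, and SK-MES-1 lies highest for DDX58, IFIH1, DHX58, EIF2AK2 and IRF7.

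The near-zero means of DDX58 and IFIH1 covered opposite values in single lines. For DDX58 the log2 ratio was -0.48 and -0.37 on the PC3 arrays of si-PIR-2 and si-PIR-3. In SK-MES-1 it was 0.67 with miR-144-5p and 0.56 with miR-144-3p, values that correspond to 1.59-fold and 1.48-fold higher signals. It was -0.15 in SW1990 and 0.26 in MDA-MB-231 with miR-204-5p. In PANC1 it was -0.35 with miR-130-5p and 0.19 with miR-130-3p. Thus both SK-MES-1 arrays were above all others. The lowest values, those of PC3 and of miR-130-5p in PANC1, lay close together, and with normexp and loess the si-PIR-3 array (-0.22) was above miR-130-5p (-0.25).

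IFIH1 took almost the same course, with -0.52 and -0.41 in PC3, 0.60 and 0.50 in SK-MES-1, -0.31 in SW1990 and 0.17 in MDA-MB-231. Its lowest value was -0.996 with miR-130-5p in PANC1, a 1.995-fold lower signal, while miR-130-3p in the same line gave 0.33. The difference between the PANC1 arrays was -1.32, and 8.14% of all probes measured on both differed by more. With normexp and loess the PANC1 values of IFIH1 were -0.61 and 0.31.

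DHX58 was above 0 in SK-MES-1 only, at 0.61 with miR-144-5p and 0.38 with miR-144-3p. It was -0.67 in SW1990, -0.53 in MDA-MB-231, -0.62 with miR-130-5p and -0.75 with miR-130-3p in PANC1. The PC3 values of -0.45 and -0.49 came from dim spots, and with normexp background correction and loess they were 0.04 and 0.05. In the other lines that processing kept the sign on every array.

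For TLR3 the scanner gave ratios of 1.26 and 1.25 on the PC3 arrays, but no fold is read from them. Neither array had the mock channel well above background, the transfected channel was so only on the si-PIR-2 array, and mean intensities were 21.9 and 22.4 on that array. With normexp and loess the ratio was 0.01 and 0.03. Where TLR3 was detected, its ratio was 0.02 with miR-144-5p and 0.50 with miR-144-3p in SK-MES-1, -0.13 in SW1990 and -0.15 in MDA-MB-231.

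EIF2AK2 had its lowest ratios under miR-204-5p, at -0.66 (SW1990) and -0.36 (MDA-MB-231). It lay at -0.20 and -0.05 in PC3, 0.25 and 0.16 in SK-MES-1, and -0.23 and 0.08 in PANC1. Its second probe gave -0.77 and -0.32 with miR-204-5p, and differed from the first in sign on 2 arrays, miR-144-5p in SK-MES-1 at -0.14 and miR-130-5p in PANC1 at 0.19.

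The brightest MAVS probe stayed close to 0 on most arrays. It was at 0.24 and -0.13 in PC3, 0.01 and 0.01 in SK-MES-1, -0.02 in SW1990, -0.22 in MDA-MB-231, -0.61 with miR-130-5p and -0.05 with miR-130-3p. The scanner ratios of the MAVS probes did not agree, and another probe ran from -1.33 with miR-130-5p to 0.53 on the si-PIR-2 array. With normexp and loess these values were -0.61 and 0.47. In SK-MES-1 that probe was at -0.45 and -0.58. TBK1 was -0.15 and -0.51 in PC3 and above 0 on all other arrays, from 0.08 with miR-144-5p to 0.51 with miR-130-5p.

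Among the transcription factors, IRF7 was above 0 only in SK-MES-1, at 0.30 and 0.26. It was -0.50 and -0.26 in PC3, -0.41 in SW1990, -0.28 in MDA-MB-231, and -0.41 and -0.35 in PANC1. The brightest IRF3 probe stayed between -0.42, on the si-PIR-3 array, and 0.15, with miR-130-5p. Its second probe gave -0.64 and -0.15 on these arrays. IRF1, itself induced by interferon and by NF-kB, had the opposite order to IFIH1 in PANC1, with 0.87 for miR-130-5p and -0.55 for miR-130-3p. It was 0.22 and 0.54 in PC3, 0.13 and -0.20 in SK-MES-1, -0.26 in SW1990 and -0.25 in MDA-MB-231. IRF1 signals were dim, and with normexp and loess the PANC1 values were 0.37 and -0.19. The IRF1 values of the PANC1 arrays differed by 1.42, and 6.69% of all probes differed by more.

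**Figure D3:**
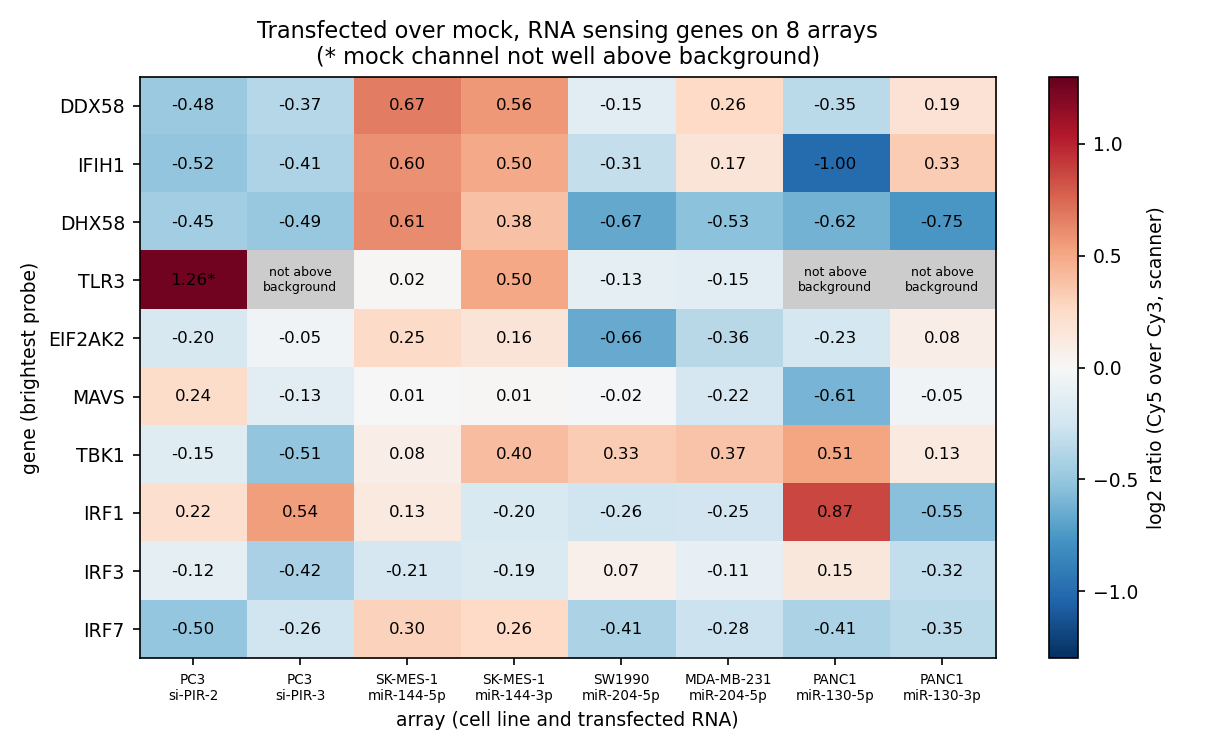
Log2 ratio of transfected over mock cells for the brightest probe of each gene (rows) on the 8 arrays (columns). Red is higher and blue lower in transfected cells, grey cells had neither channel well above background, and the star marks TLR3 on the si-PIR-2 array, where the mock channel was not. The SK-MES-1 columns hold 9 and 8 values above 0 among 10. With each array centred on its median, 7 of 10 were above 0 in both columns.

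By a threshold of 1 on the log2 scale, 1 of the 77 pairs of a member (brightest probe) and an array was past it. This was TLR3 on the si-PIR-2 array, from which no fold is read. IFIH1 with miR-130-5p fell just short of the threshold by the scanner ratio, and was at -0.61 with normexp and loess. A dimmer MAVS probe, outside this count, was past it at -1.33 with miR-130-5p, but was at -0.61 with normexp and loess. Over all probes measured, 8.97% and 6.39% were at or beyond 1 in either direction on the si-PIR-2 and si-PIR-3 arrays. The shares were 6.07% for miR-144-5p and 5.61% for miR-144-3p in SK-MES-1, 6.57% in SW1990 and 5.38% in MDA-MB-231. They were 14.4% for miR-130-5p and 8.19% for miR-130-3p in PANC1. At a threshold of 0.5, 19 of the 77 pairs (24.7%) were past it, against 25.9% of all pairs of a probe and an array, so the members' share was near the background. Of these, 8 pairs (10.4%, against 15.3% of all) were up and 11 (14.3%, against 10.5%) down. By array, 3 of 10 members were at or above 0.5 with miR-144-5p, where 13.5% of probes were, but 0 of 10 in SW1990 (13.9% of probes) and 0 of 9 with miR-130-3p (16.8%). At or below -0.5 were 3 of 9 with miR-130-5p, where 18.2% of probes were, and 0 of 10 on both SK-MES-1 arrays (9.77% and 6.98%).

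In PC3, the 2 si-PIR arrays were tested as replicates of 1 condition, although the siRNAs differ. limma called 0 of 9 members, and 0.0% of 29370 probes, while 3076 probes and 0 members had an unadjusted p under 0.05. Of the 9 members, 2 had a mean above 0 and 7 below, with a median of -0.33 against 0.03 over all probes. The means were -0.47 for DHX58, -0.46 for IFIH1 and -0.42 for DDX58, with adjusted p of 0.488, 0.495 and 0.509 by limma. The 95% interval of DDX58 ran from -0.93 to 0.08 and that of IFIH1 from -0.97 to 0.05. IRF1 had the highest mean, 0.38, with an interval from -0.17 to 0.93. With normexp (offset 50) and loess the means were 0.087 for IRF1, -0.26 for DDX58, -0.27 for IFIH1 and 0.042 for DHX58, and IRF1 was at 0.21 with an offset of 1. In data simulated for this comparison over 29366 probes, 29% of genes changed by 1 and 99% of those changed by 2 were called. Even there, a change of 1 was missed more often than called. The simulated noise was normal, with the variances that limma fitted. On the measured arrays PIR itself, at -5.46 and -4.27, was not called, and the lowest adjusted p of any probe was 0.384 by limma. The simulated shares may thus overstate what these 2 arrays can call.

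The miR-204-5p arrays of SW1990 and MDA-MB-231 were tested with the 2 lines as replicates, and here all 10 members could be tested. limma called 0 of them and 0.0% of 26651 probes, while 4944 probes and 4 members had an unadjusted p under 0.05. These 4 were DHX58 at -0.60 (SE 0.110, adjusted p 0.221), EIF2AK2 at -0.51 (SE 0.132, adjusted p 0.236), TBK1 at 0.35 (SE 0.104, adjusted p 0.254) and IRF7 at -0.35 (SE 0.109, adjusted p 0.265), all by limma. Each had the same sign in both lines, which a low p over 2 lines nearly requires. IRF1, TLR3 and MAVS also had the same sign in both. With normexp (offset 50) and loess, limma called 2 members, DHX58 at -0.47 with an adjusted p of 0.044 and EIF2AK2 at -0.49 with 0.048, among 860 higher and 733 lower probes. DDX58 at 0.05, IFIH1 at -0.07 and IRF3 at -0.02 had opposite signs in the 2 lines. The other members were IRF1 at -0.26 (-0.12 with normexp and loess), TLR3 at -0.14 and MAVS at -0.12.

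Some members have several probes, and these did not always move alike. The pair of DDX58 probes lies on chromosome 9 of hg19, the brighter at 32455398 to 32455457 and the other at 32455728 to 32455787. They had the same sign on all 8 arrays and differed by at most 0.58, with miR-130-5p, where the second gave -0.93. The 4 MAVS probes lie on chromosome 20 of hg19 between 3835323 and 3856762. With miR-130-5p the probe at 3856703 to 3856762 gave -1.33 and the brightest, at 3847884 to 3847943, gave -0.61. That at 3855582 to 3855641 gave -0.27 and that at 3835323 to 3835382 gave 0.07. In the same order, normexp and loess gave -0.61, -0.57, -0.21 and 0.03. The probes were designed to NM_020746, apart from the last, which was designed to NM_001206491. They thus read different stretches of the gene. In SK-MES-1 with miR-144-3p the brightest MAVS probe gave 0.01 while the others lay between -0.59 and -0.32. The 2 IRF3 probes differed by at most 0.30, with miR-130-5p, where their signs were opposite. The mock level of MAVS also depended on the probe, since the probe at 3855582 was highest in PC3 (3.65) and lowest in PANC1 (1.45).

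**Figure D4:**
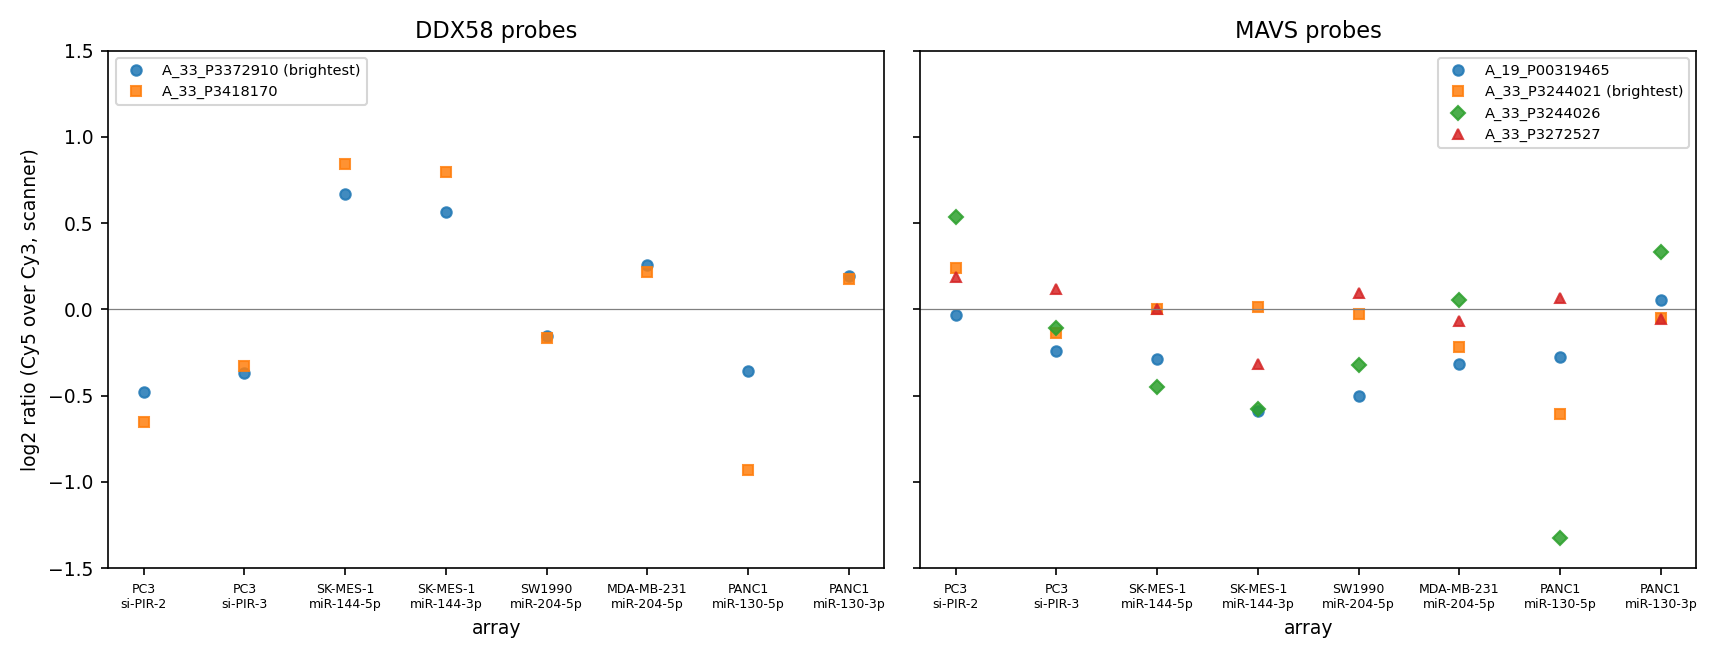
Log2 ratio of each probe of DDX58 (left) and MAVS (right) on the 8 arrays, 1 symbol per probe. The DDX58 probes follow each other, whereas the MAVS probes spread from -1.33 to 0.07 with miR-130-5p in PANC1. With normexp and loess that spread was from -0.61 to 0.03.

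Among the members themselves, Pearson's r of the ratios over the 8 arrays was highest between DHX58 and IRF7 (0.95), DDX58 and IFIH1 (0.93), and DDX58 and IRF7 (0.85). Other pairs of DDX58, IFIH1, DHX58 and EIF2AK2 ran from 0.56 (DDX58 and EIF2AK2) to 0.73 (DDX58 and DHX58), and TBK1 and IRF3 were also at 0.73. It was -0.71 between IFIH1 and IRF1. These are descriptions over 8 arrays, of which 3 pairs share a cell line and may share mock RNA. Over the 24111 probes above background on all arrays, the genes most like IFIH1 were LIG1 (r = 0.99), RPP30 (0.98) and FANCD2 (0.97). Those most like IRF1 were HIST1H2BD, RANBP3 and SNORA74A (0.97 each), and those most like DHX58 were DDX11 (0.96), SUMO3 (0.95) and IRF7 (0.95). With 8 arrays and so many probes, high values of r arise for many genes. The r values of DHX58 also rest in part on its dim PC3 spots. Their ratios of -0.45 and -0.49 were 0.04 and 0.05 with normexp and loess.

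The other genes of the pathway were described by 5 lists, none of whose members was called in any of the 3 tests. For the 20 interferon-stimulated genes, the list downstream of the sensors, 14 could be tested over 5 lines, 5 above and 9 below 0, with a median of -0.23 against 0.03 over 18733 genes. In PC3 all 17 tested had a mean below 0, with a median of -0.88. On the si-PIR-2 array IFI44 (-2.94) and IFIT2 (-2.42) were lowest, and on the si-PIR-3 array IFI44 (-1.63) and IFIT1 (-1.57). In SK-MES-1, 18 of 20 were above 0 with miR-144-5p and 19 of 20 with miR-144-3p, led by the chemokine CXCL10 at 2.75 and 2.36. The next highest with miR-144-5p was CCL5, another chemokine, at 2.10. With miR-144-3p it was BST2, whose mock channel was not well above background, so its ratio is not given. In SW1990 all 19 measured were below 0, lowest HERC5 (-1.86) and CCL5 (-1.06), and in MDA-MB-231 8 of 19 were above 0. In PANC1, 3 of 16 were above 0 with miR-130-5p, where HERC5 was lowest (-2.20), and 12 of 19 with miR-130-3p, where CCL5 was highest (1.83). With normexp (offset 50) and loess the median of the list moved from -0.94 to -0.40 on the si-PIR-2 array, from -0.47 to -0.28 on the si-PIR-3 array and from 0.43 to 0.14 with miR-130-3p, so that SW1990, at -0.70 before and -0.59 after, was then lowest. XAF1 on the miR-130-5p array and RSAD2 on the miR-130-3p array also ranked among the ends with 1 channel not well above background.

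IFIT1 and ISG15, a pair of interferon-stimulated readouts, were both below 0 in PC3, SW1990 and MDA-MB-231 and had opposite signs on both PANC1 arrays. IFIT1, which binds RNA with foreign 5′ ends, was at -2.19 and -1.57 in PC3, 0.11 and 0.04 in SK-MES-1, -0.72 in SW1990, -0.49 in MDA-MB-231, and -1.52 and 0.61 in PANC1. ISG15, a ubiquitin-like modifier, was at -0.94 and -0.82 in PC3, 0.36 and 0.04 in SK-MES-1, -0.54 in SW1990, -0.43 in MDA-MB-231, and 0.13 and -0.27 in PANC1. Over the 8 arrays the r of the 9 members other than TLR3 with IFIT1 ran from -0.72 (IRF1) to 0.86 (DDX58), with 0.85 for IFIH1, 0.36 for DHX58 and 0.09 for MAVS. With ISG15 it ran from -0.40 (MAVS) to 0.69 (DDX58), with 0.40 for IFIH1.

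Of 21 other RNA and DNA sensors, 15 were tested over 5 lines, 5 above and 10 below 0, with a median of -0.13. OASL and DDX60 were lowest on both PC3 arrays, OASL at -3.17 and -1.57 and DDX60 at -2.48 and -1.13. OASL was also lowest in SW1990, at -1.04 with miR-204-5p, and DDX60 with miR-130-5p in PANC1, at -1.54. The DNA sensor AIM2 was lowest with miR-144-3p in SK-MES-1 (-1.33) and highest with miR-144-5p, where its mock channel was not well above background and no ratio is read.

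Of 17 adaptors and kinases, 16 were tested, 10 above and 6 below 0, with a median of 0.07. MYD88, the adaptor of most Toll-like receptors, was among the 2 lowest in SK-MES-1, at -0.88 with miR-144-5p and -0.98 with miR-144-3p. IKBKE, the kinase related to TBK1, was highest on the si-PIR-2 array (1.47) and with miR-144-3p (0.63). All 10 negative regulators were tested, 7 above and 3 below 0, with a median of 0.11. TNFAIP3, which ends NF-kB signalling, was highest on the si-PIR-2 array (1.62), on both SK-MES-1 arrays (1.12 and 1.01) and with miR-130-5p (1.62). USP18, which removes ISG15, was lowest in SW1990 (-0.87). Of 19 interferons and receptor signalling genes, 15 were on the array and 8 were tested, 4 above and 4 below 0, with a median of -0.05. IFNL1, an interferon gene, was lowest in SW1990 (-0.71) and highest with miR-130-3p in PANC1 (1.63).

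**Figure D5:**
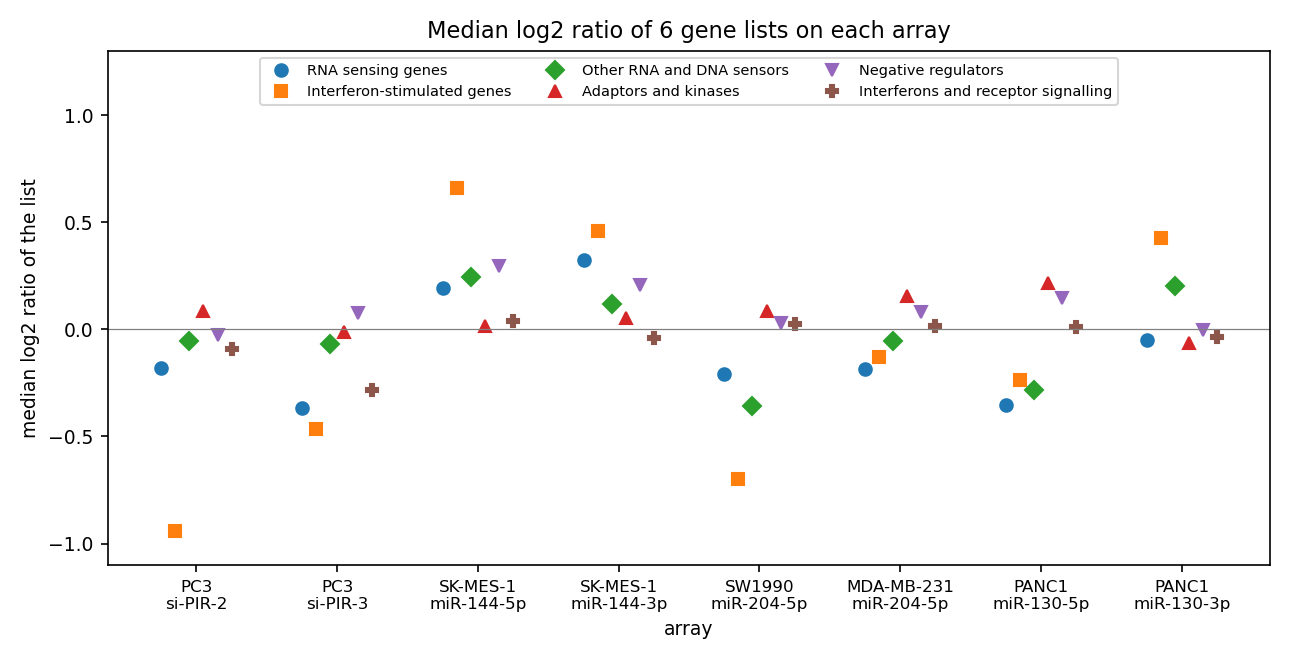
Median log2 ratio of the sensing genes and of 5 further lists on each array, over the genes with a channel well above background. The interferon-stimulated genes run from -0.94 on the si-PIR-2 array to 0.66 with miR-144-5p (-0.40 and 0.52 with normexp and loess), and the sensing genes run from -0.37 on the si-PIR-3 array to 0.32 with miR-144-3p.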

How the data were processed

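Two-colour arrays of 5 cell lines were analysed. The authors deposited the scanner output of Agilent Feature Extraction 11.5.1.1 for each array. Per the file headers, these deposited files give for both dyes a linear intensity per spot with local background. They also give a log10 ratio (Cy5 to Cy3) that the software had corrected for background and dye. A value table from the authors repeats this log10 ratio, differing by at most 0. Controls and spots marked as outliers were dropped, and replicate spots averaged. The ratio was put on the log2 scale. For each probe limma 3.58.1 in R 4.3.3 (lmFit, eBayes) tested the mean against 0, with Benjamini-Hochberg adjustment over all probes and a threshold of 0.05, two-sided. Probes entered if either channel was well above background, on every array of the comparison, and the brightest probe stood for a gene. All arrays lay on 1 slide with 1 scan. Sources used here give no test for the arrays. Arrays were grouped by the labels' cell line and transfected RNA, with single arrays described without a test. Probe coordinates follow the array's own hg19 annotation, without exons. All 16 member probes matched a RefSeq accession. Alternatives were normexp with an offset of 50 or 1 and loess, median centring, the value table, no filter, both channels required, probes averaged per gene, leaving out each line or array, and the 8 arrays with cell line as a random block. The steps were tested on simulated data. The number of arrays limits the precision.

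The members and lists were chosen with earlier results of these data known. The text names all members by every probe, IFIT1, ISG15 and PIR, and for 3 members the 3 genes with the highest r. From the other lists it names genes among the 2 lowest and 2 highest on an array, not all of them. A readout gene and a cell line marker of these lists are not reported here. Figures were drawn with matplotlib 3.10.9.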

Additional observations from a re-analysis of the deposited data

Results flagged for a closer look

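Among the log2 ratios of the 5 cell lines, 3 members had a line that stood far from the other 4. DHX58 was at 0.50 and IRF7 at 0.28 in SK-MES-1, where the other lines were below 0, and TBK1 was at -0.33 in PC3, where the other lines were above 0. Chance sets about 1 in 20 groups of values apart by this criterion, and 9 members were looked at. The members are not independent, since the r of DHX58 and IRF7 was 0.95. With normexp (offset 50) and loess DHX58 was at 0.042 in PC3, no longer below 0.

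In the 3 lines with 2 arrays, several members moved one way on both arrays of a line and the opposite way on both arrays of another. These differences were not tested, and the line and the small RNA differ together, so they cannot be told apart. The mean ratio in SK-MES-1 minus that in PC3 was 1.04 for DDX58, 1.01 for IFIH1, 0.97 for DHX58, 0.66 for IRF7, 0.57 for TBK1 and 0.33 for EIF2AK2. With normexp and loess the PC3 values of DHX58 were 0.04 and 0.05, so that its arrays were no longer opposite. PANC1 minus SK-MES-1 gave -1.18 for DHX58, -0.66 for IRF7 and -0.34 for MAVS, and the SK-MES-1 values of MAVS were within 0.01 of 0. PANC1 minus PC3 gave 0.65 for TBK1.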

How the results depend on the processing

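Over 5 cell lines and in PC3, the count of members called was 0 under all alternatives run. For miR-204-5p it was 2 with normexp (offset 50) and loess and 0 under the other alternatives. Over all probes, the 18 higher and 25 lower calls of the 5 lines became 164 and 55 with that processing, 72 and 37 with an offset of 1, 51 and 34 with both channels above background, 258 and 116 with cell line as a random block (consensus correlation 0.139), and 0 without a filter. Calls for miR-204-5p became 860 higher and 733 lower with an offset of 50, 8 lower with an offset of 1 and 6 lower with both channels. Of the 77 pairs of member and array, 0 were past 1 with normexp and loess, 2 after centring, 19 at a threshold of 0.5 and 0 at 1.5. Signs turned for IRF1 over 5 lines with the random block (0.052), and for DHX58 in PC3 with an offset of 50 (0.042) and of 1 (0.24). Leaving out a line gave -0.10 to 0.16 for DDX58 (-0.0098 without MDA-MB-231), -0.24 to 0.016 for IFIH1 and -0.096 to 0.064 for IRF1 (0.060 without MDA-MB-231 and 0.0072 without SK-MES-1). Leaving out 1 PC3 array gave -0.13 to 0.24 for MAVS. Leaving out 1 line of miR-204-5p gave -0.15 to 0.26 for DDX58, -0.31 to 0.17 for IFIH1 and -0.11 to 0.066 for IRF3, values with no test. The cause of these changes was not tested. Differences of mock level between the highest and lowest line were smaller with normexp and quantile normalization, 1.61 for DDX58, 2.47 for IFIH1, 2.88 for DHX58, 1.03 for EIF2AK2, 1.10 for MAVS, 0.87 for TBK1, 0.87 for IRF1, 1.28 for IRF3, 1.49 for IRF7 and 1.10 for TLR3, and MAVS was at 1.35 when set against the median of detected probes. Offsets draw dim signals together, so members near background, DHX58 in PC3, IRF1, and TLR3 in PC3 and PANC1, have the least certain values. No slide or scan block was run, as all arrays share 1 slide and 1 scan. No paired analysis was possible because the labels give the arrays no replicate numbers that tie them across groups. Each ratio already sets transfected against mock RNA on the same array.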
